A study of Homo sapiens with 43 samples.

Results

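The genes followed here belong to interferon gamma signalling and were read across every library of the series. They are the receptor chains IFNGR1 and IFNGR2, the kinases JAK1 and JAK2, the transcription factors STAT2 and STAT3, and the feedback inhibitors SOCS1 and SOCS3. They were chosen by matching Ensembl identifiers to these symbols, which gave 8 of the 58780 Ensembl genes in the files. The series holds polyadenylated RNA sequencing of 43 libraries from established human cell lines, in 22 groups of 2 libraries, except doxorubicin with 1. GM12878, a lymphoblastoid B cell line carrying Epstein-Barr virus, gave 39 libraries, and the liver carcinoma line HepG2 gave 4. In a panel, GM12878 received for 6 h either a vehicle (DMSO or PBS) or 1 stimulus. The stimuli were IFNg (interferon gamma) at 100 ng/mL, the glucocorticoid Dex (dexamethasone) and the DNA-damaging drug Dox (doxorubicin) at 500 nM each, IL2 at 50 U/mL, the cytokine TNF at 25 ng/mL and the bacterial outer membrane component LPS at 10 ng/mL. In a pretreatment experiment, GM12878 was held for 30 min in DMSO or in 10 µM BRM014, and then given IFNg, Dex or their vehicle, and sampled at 1 h or 6 h. HepG2 was kept for 24 h in DMSO or 10 µM BRM014, with no cytokine or steroid. BRM014 inhibits SMARCA2 and SMARCA4, the motor subunits of the BAF chromatin remodelling complexes.

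Interferon gamma binds a receptor built from IFNGR1, which holds the ligand, and IFNGR2, which is needed for signalling. JAK1 sits on the tail of IFNGR1 and JAK2 on that of IFNGR2, and the activated kinases phosphorylate STAT proteins that move to the nucleus and bind GAS elements. SOCS1 and SOCS3 are feedback inhibitors of JAK-STAT signalling that this route induces. SOCS1 inhibits the JAK kinases of this route directly, while SOCS3 acts on receptor chains such as that of IL6. Dex acts through a separate nuclear receptor, the glucocorticoid receptor.

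The files held 12.91 to 22.94 M expected counts per GM12878 library and 3.055 to 19.91 M per HepG2 library, with HepG2 BRM014 replicate 2 the shallowest. The 6 B cell markers summed to between 961 and 2009 CPM (counts scaled to a common depth by TMM over all 43 libraries) in GM12878 and to at most 3.14 in HepG2. The 6 hepatocyte markers summed to at least 15607 CPM in HepG2 and to at most 4.02 in GM12878. The 4 T and NK cell markers summed to at most 10.6 CPM in GM12878. Of these, CD3D and CD2 had a median of 0, CD3E of 2.43 and NKG7 of 4.68. The 4 myeloid markers summed to at most 9.75 CPM in GM12878. In HepG2 they summed to between 1107 and 3072, where LYZ alone ran from 1106 to 3070. Several of the genes share their locus with others in GENCODE 44: RMI2 overlaps SOCS1, TMEM50B overlaps IFNGR2, RAVER2 overlaps JAK1 and INSL6 overlaps JAK2, each on the opposite strand, and 11 annotated genes overlap JAK2 on its own strand. No source used here says whether the counting used strand, so reads of such pairs may not be told apart, while IFNGR1, STAT3 and SOCS3 overlap no other gene.

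No label states whether replicate libraries came from separate cultures, so every p-value below reflects the spread among libraries, which could be purely technical.

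Between genes, levels can be compared only per length, by the deposited TPM values. In the panel DMSO libraries, STAT2 stood highest at 145 ± 4.44 TPM (mean ± SD, n = 2), above IFNGR1 at 97.8 ± 3.19 and STAT3 at 85.8 ± 0.721. IFNGR2 and JAK1 lay close together at 60.5 ± 5.96 and 57.6 ± 0.573 TPM. SOCS1 was at 21.5 ± 4.76, JAK2 at 10.2 ± 0.672 and SOCS3 at 5.38 ± 0.0495 TPM. JAK2, the kinase on IFNGR2, was thus the lowest of the 6 non-SOCS genes without stimulus, and SOCS3 the lowest of all 8. After IFNg for 1 h (DMSO arm) SOCS1 reached 112 ± 15.4 and SOCS3 37.3 ± 0.0495 TPM, beside 98.6 ± 2.88 for IFNGR1. IFNG, the ligand gene itself, was between 0.0713 and 1.02 CPM in the 39 GM12878 libraries and at 0 in the 4 HepG2 libraries.

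**Figure D1:**
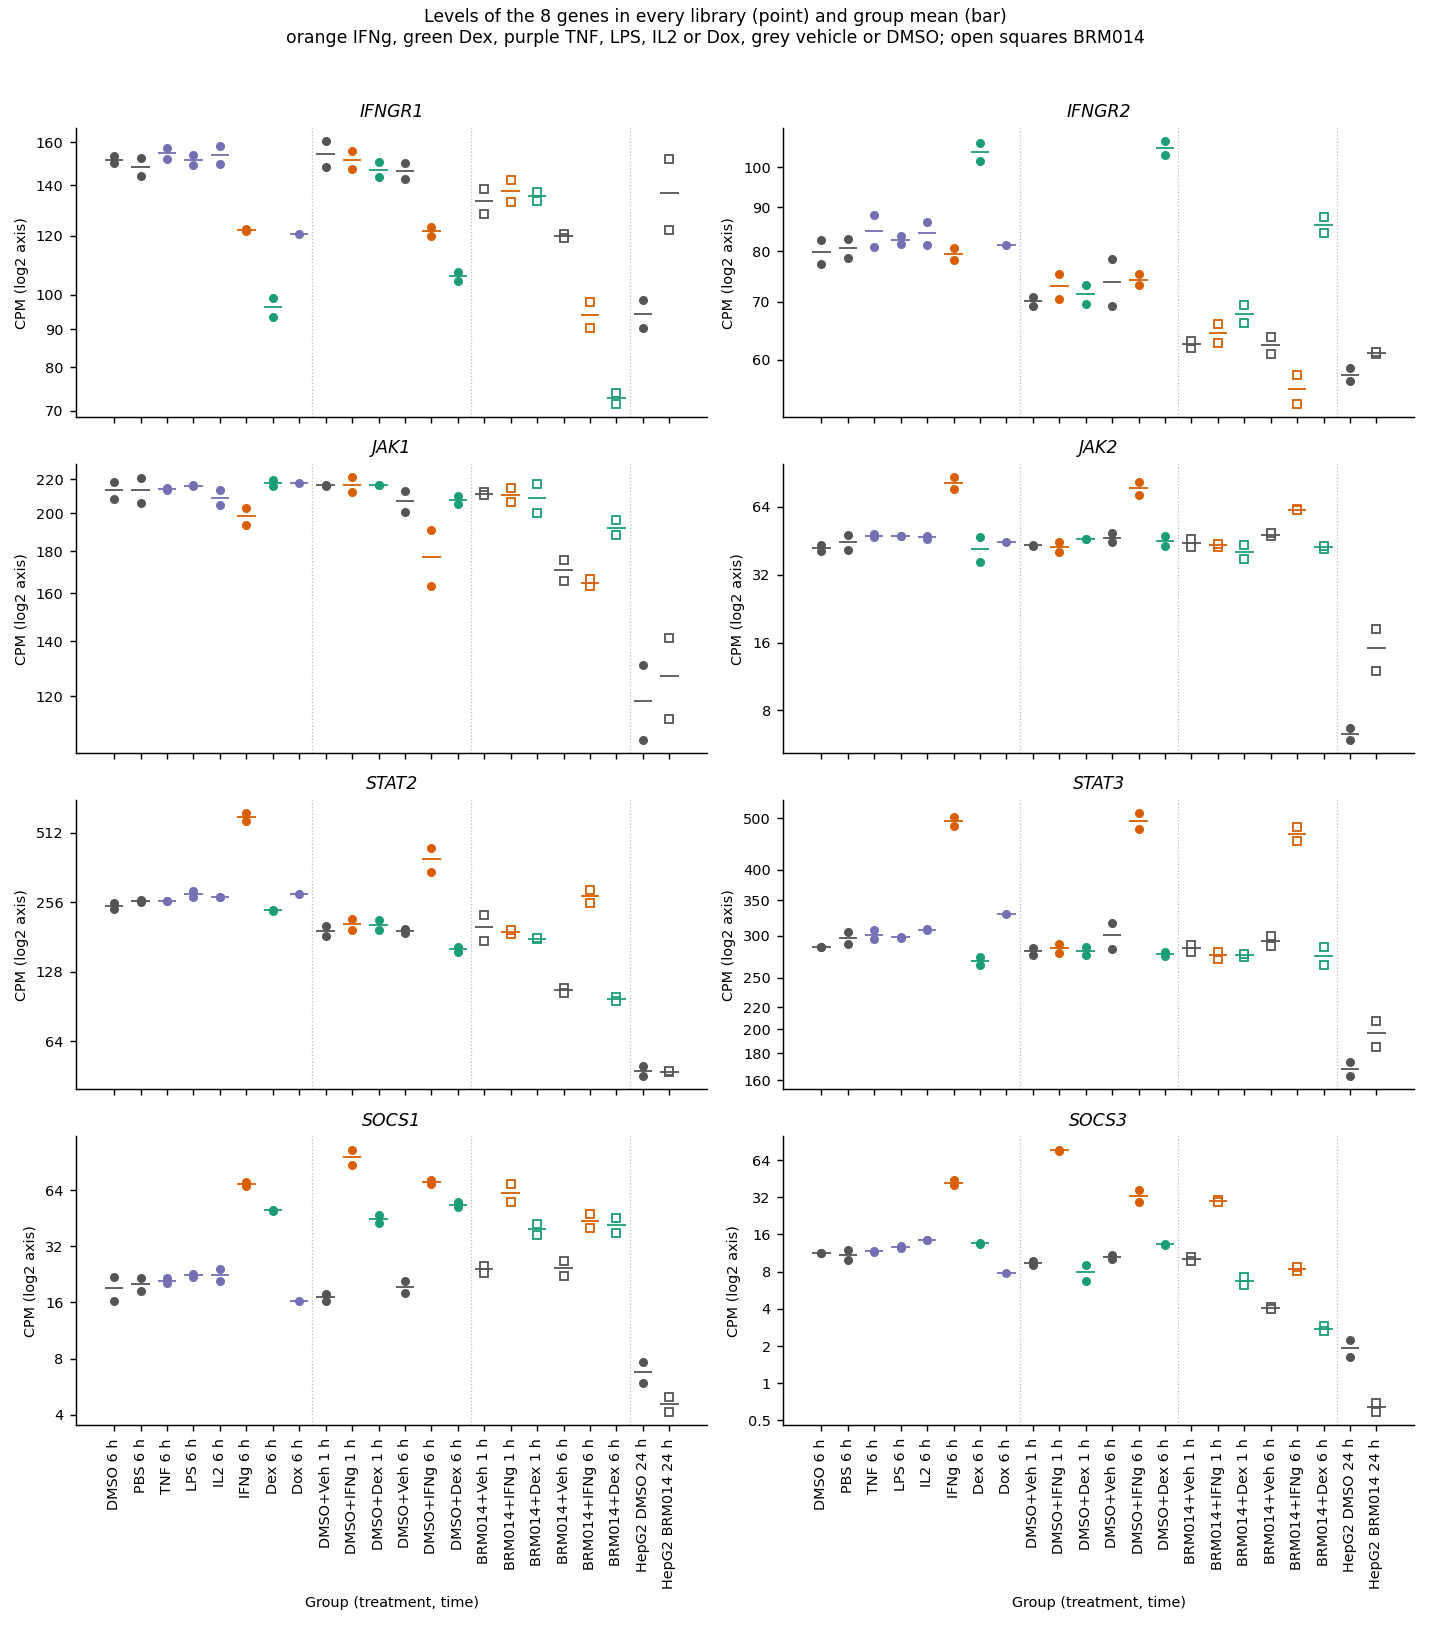
Levels of the 8 genes (CPM, log2 axis) in all 43 libraries, with groups along the horizontal axis; points are libraries and bars group means, with open squares for BRM014. SOCS1, SOCS3, JAK2, STAT2 and STAT3 are above their vehicle in all 3 orange IFNg groups at 6 h. After BRM014, SOCS3 stands at 8.15 and 8.67 CPM with IFNg, above 4.14 and 4.01 with vehicle and below the IFNg groups without BRM014. IFNGR1 and IFNGR2 are low and high in the green Dex groups at 6 h.

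Across the 22 groups, ordered by mean CPM, SOCS3 had the largest ratio of the highest to the lowest group, from 77.2 CPM with IFNg for 1 h to 0.639 in HepG2 with BRM014. Of its 21 pairs of neighbours in that order, 7 overlapped in their libraries, against 10 for STAT2, 12 for SOCS1, 14 for STAT3, 16 for IFNGR1 and IFNGR2, 17 for JAK2 and 19 for JAK1. SOCS1 was ordered as DMSO arm IFNg at 1 h, IFNg at 6 h, panel IFNg, BRM014 arm IFNg at 1 h, then all Dex groups mixed with BRM014 arm IFNg at 6 h, then the groups with neither stimulus. For STAT3 and JAK2 the 3 highest groups were those with IFNg for 6 h. For STAT2 the highest 2 were IFNg groups without BRM014, and those of IFNg after BRM014 followed Dox and LPS, with libraries overlapping those of Dox, LPS and IL2. IFNGR1 was lowest with Dex at 6 h after BRM014 and IFNGR2 highest with Dex at 6 h. JAK1 varied between 163 and 221 CPM over the 39 GM12878 libraries, and had the most overlapping neighbours of the 8.

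The first question was how the 8 genes responded to IFNg, and when. In cells given DMSO first, IFNg for 1 h raised the inhibitor genes SOCS1 and SOCS3 and none of the other 6 was called. After 6 h JAK2, STAT2 and STAT3 were higher as well, and IFNGR1 was lower. The 6 B cell markers summed to between 1637 and 1763 CPM with IFNg at 6 h in the DMSO arm, against 1856 to 1911 with vehicle. In the panel they summed to between 1798 and 1810.2 with IFNg, against 1876 to 1959 in the controls, and their part in the IFNg results was not tested. GM12878 is 1 established cell line, so these sums describe marker expression, and bulk RNA does not show how that is spread over its cells. All changes are log2 fold changes ± SE from edgeR's quasi-likelihood test on rounded expected counts, and a gene is called where its p, adjusted by Benjamini and Hochberg's method over the genes of that comparison, is under 0.05. At 1 h 2 of the 8 genes were called, both higher, where 0.514% of 15183 genes were called (0.435% higher). At 6 h 7 were called, 5 higher and 2 lower, where 6.62% were called (3.47% higher and 3.15% lower). In the panel, with the mean of DMSO and PBS as control, 6 were called, 5 higher and 1 lower, where 11.9% of 15775 genes were (7.11% and 4.75%).

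Of the receptor chains, IFNGR1 fell at 6 h and IFNGR2 was not called. IFNGR1 (ENSG00000027697.14, hg38 chr6:137197483-137219449, minus strand), the ligand-binding chain, measured 143 and 149.9 CPM with vehicle and 119.98 and 123 with IFNg at 6 h. The IFNg libraries lay below all vehicle libraries, and IFNGR1 fell by 0.27 ± 0.057 (edgeR adjusted p = 0.00176), and in the panel by 0.30 ± 0.043 (edgeR adjusted p = 3.60e-06), from 153 and 149.9 (DMSO) and 144 and 152 (PBS) to 122 and 122 CPM. When the vehicle and IFNg groups alone were fitted, the call at 6 h in the pretreatment experiment was lost (edgeR adjusted p = 0.0780). IFNGR2 (ENSG00000159128.14, chr21:33403413-33479348, plus strand), the signalling chain, measured 78.3 and 69.3 CPM with vehicle and 75.2 and 73.1 with IFNg at 6 h. These libraries overlapped, and the difference was 0.004 ± 0.064 with a 95% interval of -0.13 to 0.13, against -0.012 ± 0.051 (-0.12 to 0.093) in the panel. At 1 h neither chain was called, at -0.025 ± 0.056 for IFNGR1 and 0.060 ± 0.064 for IFNGR2.

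Of the kinases, JAK2 (ENSG00000096968.13, chr9:4984390-5129948, plus strand) rose and JAK1 (ENSG00000162434.11, chr1:64833223-65067754, minus strand) did not, falling at 6 h in 1 of the experiments. JAK2 measured 43.6 and 43.1 CPM with vehicle and 44.9 and 40.2 with IFNg at 1 h, overlapping values, and the difference was -0.020 ± 0.079. At 6 h it measured 44.8 and 48.9 with vehicle and 72.3 and 82.8 with IFNg. Every IFNg library was then above every vehicle library, a rise of 0.72 ± 0.076 (edgeR adjusted p = 4.27e-08), or 1.65-fold, with 0.91 ± 0.076 in the panel. JAK1, the kinase bound to IFNGR1, measured 201 and 213 CPM with vehicle and 163 and 191 with IFNg at 6 h and fell by 0.23 ± 0.058 (edgeR adjusted p = 0.00988). That call was lost without vehicle replicate 2 (-0.19, edgeR adjusted p = 0.137), without IFNg replicate 1 (-0.12, 0.372) or with only these groups in the fit (0.207). In the panel JAK1 was not called, at -0.11 ± 0.040 (edgeR adjusted p = 0.0808), with 194 and 203 CPM against 218 and 208 for DMSO and 206 and 221 for PBS.

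STAT2 and STAT3 rose at 6 h in both experiments. STAT2 (ENSG00000170581.13, chr12:56341597-56360203, minus strand), a partner in the factor ISGF3 of type I interferon signalling, measured 188 and 197 CPM with vehicle and 345 and 441 with IFNg at 6 h. It rose by 1.02 ± 0.12 (edgeR adjusted p = 0.000124), and the IFNg libraries differed from each other more than those of the panel, at 576 and 620.4 CPM. Its unstimulated level also differed between the experiments, at 248 ± 10.6 CPM in panel DMSO and 192 ± 6.27 in the vehicle libraries of the DMSO arm at 6 h (mean ± SD, n = 2). STAT3 (ENSG00000168610.14, chr17:42313324-42388540, minus strand), the main factor of IL6 and IL10 signalling, measured 318 and 284 CPM with vehicle and 477 and 511 with IFNg at 6 h. The groups did not overlap, and STAT3 rose by 0.71 ± 0.053 (edgeR adjusted p = 3.54e-11) and by 0.76 ± 0.036 in the panel. At 1 h the differences were 0.097 ± 0.12 for STAT2 and 0.021 ± 0.054 for STAT3, with overlapping libraries and no call.

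The feedback inhibitors gave the largest changes of the 8 genes in the panel and at both times of the DMSO arm. SOCS3 (ENSG00000184557.4, chr17:78356778-78360077, minus strand) blocks JAK kinases on receptor chains such as that of IL6, and measured 8.98 and 9.67 CPM with vehicle and 76.5 and 77.9 with IFNg at 1 h. This was a rise of 3.05 ± 0.11, or 8.28-fold (edgeR adjusted p = 5.88e-19). At 6 h the libraries measured 10.997 and 10.1 with vehicle and 29.5 and 36.7 with IFNg, a rise of 1.65 ± 0.11 (edgeR adjusted p = 2.83e-12). SOCS3 was therefore above vehicle at both times and lower at 6 h than at 1 h in every IFNg library. SOCS1 (ENSG00000185338.5, chr16:11254417-11256204, minus strand), the direct inhibitor of JAK kinase activity in this pathway, measured 17.7 and 16.3 CPM with vehicle and 106 and 87.3 with IFNg at 1 h. It rose by 2.51 ± 0.14, or 5.70-fold (edgeR adjusted p = 6.60e-09). At 6 h it measured 20.8 and 17.9 with vehicle and 72.6 and 69.5 with IFNg, a rise of 1.88 ± 0.14 (edgeR adjusted p = 7.56e-08). Panel IFNg gave 70.5 and 67.9 CPM for SOCS1 and 44.3 and 39.9 for SOCS3 at 6 h, rises of 1.83 ± 0.082 and 1.93 ± 0.083.

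The 250 bases before the MANE Select start of SOCS1 were read from hg38 and searched on both strands for 3 motifs. The promoter is printed because SOCS1 rose early with both IFNg and Dex and held a match. It lies at chr16:11256205-11256454, minus strand, and is written 5′ to 3′ toward the start of transcription. The capitals mark the ISRE letters, TTTC and then any 2 bases and TTTC, found here on the other strand.
SOCS1 promoter: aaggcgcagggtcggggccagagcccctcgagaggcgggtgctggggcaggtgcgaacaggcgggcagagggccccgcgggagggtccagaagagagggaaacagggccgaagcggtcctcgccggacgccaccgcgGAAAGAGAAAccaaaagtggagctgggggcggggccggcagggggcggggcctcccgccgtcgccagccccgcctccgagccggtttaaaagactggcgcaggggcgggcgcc
The match, GAAAGAGAAA, lies 113 to 104 bases before the start. The GAS letters TTCNNNGAA and the letters TGTTCT, the core of a glucocorticoid response element, were not in this window. The same window was searched for all 8 genes. SOCS3 alone held the GAS letters (TTCCAGGAA, 64 to 56 bases before its start), SOCS1 alone the ISRE letters, and 0 of the 8 held TGTTCT. Among the 19060 promoters of the same length, 2.83% held the ISRE letters, 5.58% the GAS letters and 8.7% TGTTCT. A match is a description of the letters, and the window does not cover distant elements.

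The response differed between 1 h and 6 h for 4 of the 8 genes, where 2.01% of 15183 genes were called (1.12% with a higher and 0.889% with a lower response at 6 h). In this contrast each time is set against its own vehicle libraries. The response of the inhibitor SOCS3 was lower at 6 h, with a difference of -1.40 ± 0.16 (edgeR adjusted p = 8.87e-07). Those of JAK2 (0.74 ± 0.11), STAT3 (0.69 ± 0.076) and STAT2 (0.93 ± 0.17) were higher at 6 h, with edgeR adjusted p of 7.75e-05, 4.71e-07 and 0.0137. The STAT2 call was lost without vehicle replicate 1 at 1 h (edgeR adjusted p = 0.0665) or at 6 h (0.0590), without IFNg replicate 2 at 1 h (0.0666), or with only these groups in the fit (0.0606). SOCS1 had a difference of -0.63 ± 0.20 that was not called by edgeR (adjusted p = 0.157) and was by DESeq2 (adjusted p = 0.0366). Whether SOCS1 and SOCS3 differ from each other in this was not tested. Between vehicle libraries at 6 h and 1 h, edgeR called 0 of them and gave 0 at an unadjusted p under 0.05, where 1.43% of all genes were called and DESeq2 also called 0.

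**Figure D2:**
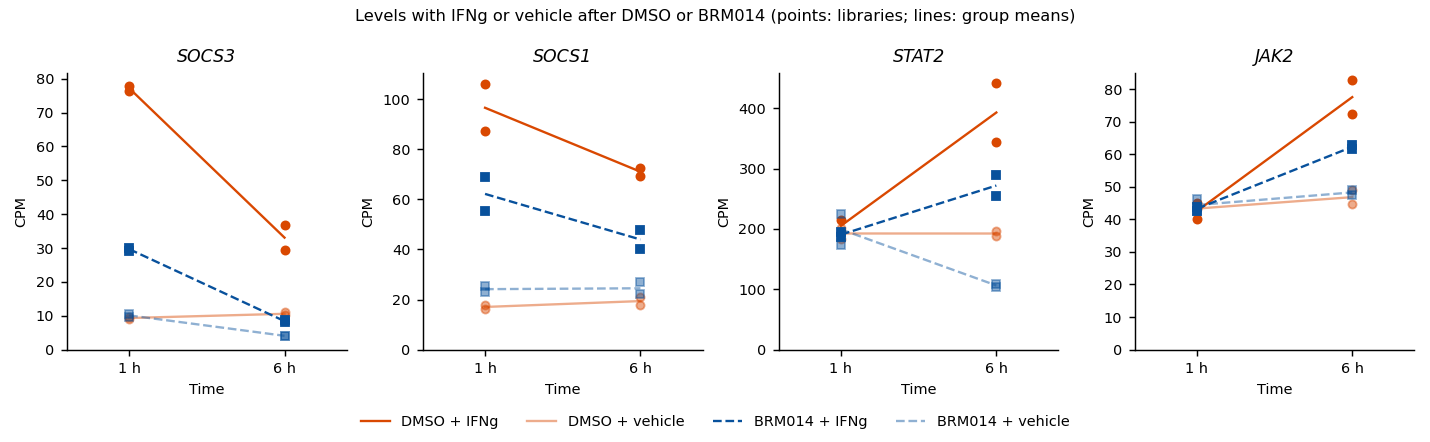
CPM of SOCS3, SOCS1, STAT2 and JAK2 at 1 h and 6 h; points are libraries and lines join group means, solid for the DMSO arm and dashed for the BRM014 arm, dark for IFNg and pale for vehicle. SOCS3 with IFNg stands at 76.5 and 77.9 at 1 h in the DMSO arm and 30.1 and 29.2 in the BRM014 arm, and STAT2 and JAK2 with IFNg lie above the vehicle libraries of their arm at 6 h.

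Other genes of the pathway were read from lists of kinases and STATs, negative regulators and receptor chains. At 1 h of IFNg, 1 of 16 other negative regulators was called, CISH, a SOCS family member of STAT5 feedback, which rose by 2.11 ± 0.20 from 3.28 and 3.61 to 15.0 and 14.7 CPM. None of the 6 other kinases and STATs and none of the 13 other receptor chains was called at 1 h, where 0.514% of all genes were. In the panel at 6 h, 5 of 16 other regulators rose and 0 fell, where 7.11% of all genes were higher and 4.75% lower. In the DMSO arm at 6 h 4 rose and 2 fell, where 3.47% of all genes were higher and 3.15% lower. Besides CISH (1.12 ± 0.13), the regulators that rose included USP18, which restrains type I interferon receptors (0.71 ± 0.074), and the phosphatase genes PTPN2 (0.43 ± 0.063) and PTPN1 (0.27 ± 0.039). In the panel the median log2 fold change was 0.031 over the 16 other regulators and 0.84 over the 8 genes, beside -0.0080 over all tested genes. In the DMSO arm at 6 h the median of the 8 was 0.72. The 8 genes were chosen with earlier results of these data known, so their medians are a description only. Of the 6 other kinases and STATs 3 rose in the panel, STAT4, a factor of IL12 signalling, by 0.71 ± 0.18, JAK3 by 0.31 ± 0.050 and STAT5A by 0.24 ± 0.037. In the DMSO arm at 6 h 1 of these 6 was called, STAT4, at 0.88 ± 0.18, and their median was -0.0035 beside 0.14 in the panel. Of the 13 other receptor chains 4 fell and 1 rose in the panel, and 2 fell and 0 rose in the DMSO arm. IL27RA, a receptor chain for IL27, had log2 fold changes of -0.54 ± 0.069 in the panel and -0.59 ± 0.081 in the DMSO arm. All 10 genes of a list of known IFNg targets rose in the panel, among them CXCL9 (5.35 ± 0.070), GBP1 (3.27 ± 0.050) and IRF1 (2.53 ± 0.043).

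The next question was how the pathway genes responded to Dex, a glucocorticoid. SOCS1 rose at 1 h and at 6 h, and at 6 h the receptor chains moved in opposite directions, IFNGR1 down and IFNGR2 up, while the kinases were not called. The 6 B cell markers summed to between 1429 and 1430.2 CPM with Dex at 6 h in the DMSO arm, between 1856 and 1911 with vehicle, and between 1460 and 1465 with panel Dex. Their part in the Dex results was not tested. The Dex and IFNg comparisons share their vehicle libraries. At 1 h 1 of the 8 genes was called, where 0.606% of all genes were (0.362% higher). At 6 h 3 were called, 2 higher and 1 lower, where 15.6% were (8.06% and 7.53%). In the panel 5 were called, 3 higher and 2 lower, where 25.7% were (13% and 12.7%).

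IFNGR1 measured 160.4 and 148 CPM with vehicle and 150.3 and 144 with Dex at 1 h, and 143 and 149.9 with vehicle and 107 and 104 with Dex at 6 h. The Dex libraries overlapped vehicle at 1 h and lay below it at 6 h. IFNGR1 fell by 0.48 ± 0.057 at 6 h (edgeR adjusted p = 1.25e-07) and by 0.64 ± 0.044 in the panel (edgeR adjusted p = 8.74e-14). IFNGR2 measured 69.2 and 70.9 with vehicle and 73.2 and 69.6 with Dex at 1 h, and 78.3 and 69.3 with vehicle and 107 and 103 with Dex at 6 h. Its Dex libraries were above every vehicle library at 6 h. It rose by 0.51 ± 0.062 at 6 h (edgeR adjusted p = 1.61e-07) and by 0.37 ± 0.049 in the panel. Panel Dex gave 107 and 102 CPM, against 82.4 and 77.4 with DMSO and 82.6 and 78.7 with PBS. Both responses differed between the times, at -0.41 ± 0.080 for IFNGR1 and 0.48 ± 0.089 for IFNGR2 (edgeR adjusted p = 0.000577 and 0.000388), the only 2 of 8 called in that contrast, where 7.78% of genes were (3.93% higher and 3.85% lower). By deposited TPM the chains changed places, from 97.6 for IFNGR1 and 57.4 for IFNGR2 with vehicle to 69.8 and 80.8 with Dex at 6 h.

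**Figure D3:**
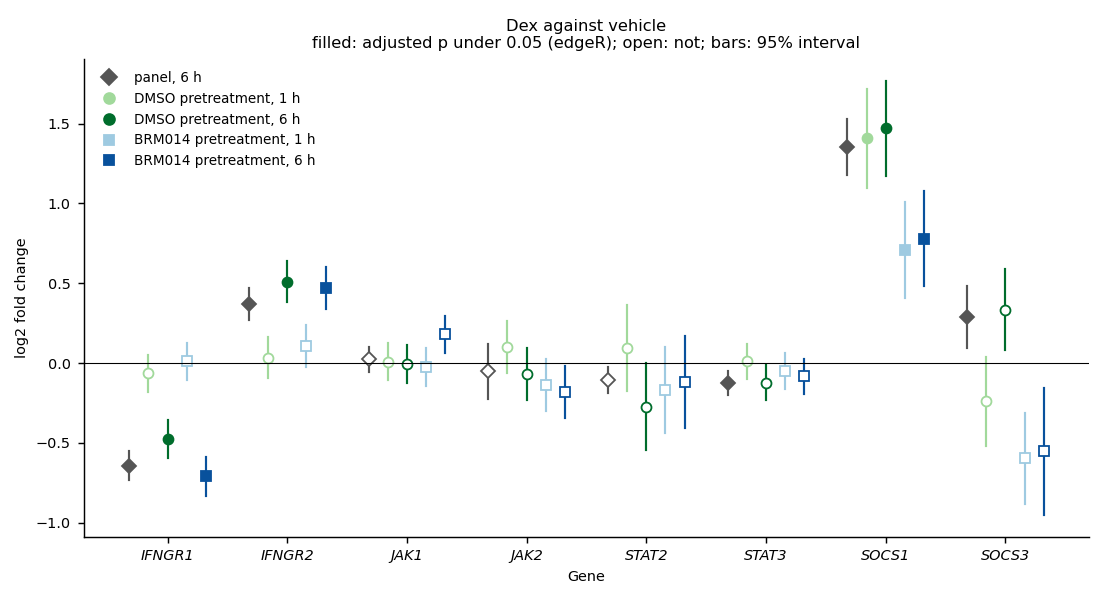
Log2 fold change of Dex against vehicle for the 8 genes in the panel and in the DMSO and BRM014 arms at 1 h and 6 h, with 95% intervals; filled symbols have an edgeR adjusted p under 0.05. IFNGR1 and IFNGR2 stand on opposite sides of 0 at 6 h (-0.48 and 0.51 in the DMSO arm), and SOCS1 is above 0 in every comparison.

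SOCS1 measured 47.0 and 42.95 CPM with Dex at 1 h and 52.2 and 55.0 at 6 h, above all vehicle libraries of either time (17.7 and 16.3 at 1 h, 20.8 and 17.9 at 6 h). It rose by 1.41 ± 0.15 at 1 h and 1.47 ± 0.14 at 6 h (edgeR adjusted p = 1.84e-05 and 4.82e-07), and the difference between the times was 0.062 ± 0.21, with a 95% interval of -0.37 to 0.50. SOCS3 was not called at 1 h, with 9.04 and 6.77 CPM against 8.98 and 9.67 and a difference of -0.24 ± 0.14. At 6 h SOCS3 measured 13.2 and 13.51 against 10.997 and 10.1, a difference of 0.34 ± 0.12 that was not called (edgeR adjusted p = 0.0643). In the panel SOCS3 was called at 0.29 ± 0.096 (edgeR adjusted p = 0.0245). The call was lost by DESeq2 (adjusted p = 0.127), with DMSO alone as control (0.102), and without either Dex library (0.0889 without replicate 1 and 0.140 without replicate 2), the first DMSO library (0.0528) or the second PBS library (0.149).

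STAT3 fell by 0.12 ± 0.037 in the panel (edgeR adjusted p = 0.0130). It measured 286 and 286 CPM with DMSO, 290 and 306 with PBS, and 265 and 273 with Dex. Without Dex replicate 1 (edgeR adjusted p = 0.146), with DMSO alone as control (0.116) or with only these groups in the fit (0.0610) this call was lost. STAT2 was at -0.11 ± 0.040 in the panel and -0.27 ± 0.13 in the DMSO arm at 6 h, not called (edgeR adjusted p = 0.0503 and 0.191), with 156 and 165 CPM against 188 and 197. The kinases JAK1 and JAK2 had 95% intervals of -0.056 to 0.10 and -0.22 to 0.12 for panel Dex.

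Among other pathway genes, panel Dex raised 6 and lowered 3 of 16 other negative regulators, where 13% of all genes were higher and 12.7% lower. CISH was up by 1.28 ± 0.13 and PTPN1 by 0.73 ± 0.037, and the immune cell phosphatases PTPRC and PTPN6 were down by 0.30 ± 0.041 and 0.28 ± 0.039. CISH was also the 1 regulator called at 1 h of Dex (1.06 ± 0.21), beside SOCS1, where 0.606% of all genes were called. Of 13 other receptor chains 4 rose and 6 fell, including IFNLR1, a chain of the interferon lambda receptor (0.76 ± 0.072), IL6ST, the shared chain of the IL6 family (0.73 ± 0.065), and IL2RB (-0.40 ± 0.043). In the DMSO arm at 6 h 3 of these regulators rose and 3 fell, and 3 of the receptor chains rose and 6 fell. Over all genes in that comparison, 8.06% were higher and 7.53% lower. All 4 known Dex targets tested rose in the panel, TSC22D3 most (4.30 ± 0.046). Of the 10 IFNg targets 8 fell and 1, TAP1, rose in the panel, while 5 fell and 0 rose in the DMSO arm at 6 h. IRF1 was at -0.70 ± 0.054 in the panel and -0.75 ± 0.20 in the DMSO arm.

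BRM014 was then compared with DMSO in libraries without stimulus. After 1 h of vehicle 1 of the 8 genes was called, and after 6 h SOCS3, STAT2, JAK1 and both receptor chains were lower, while JAK2, STAT3 and SOCS1 were not called. The 6 B cell markers summed to between 1130.2 and 1139.7 CPM after BRM014 at 6 h and between 1856 and 1911 after DMSO, and to between 1864 and 1872 against between 1969.9 and 1992 at 1 h. Their part in these results was not tested. The gene called at 1 h, IFNGR1, was lower, where 2.05% of genes were called (0.599% higher and 1.46% lower). At 6 h 5 were called, all lower, where 38.5% of genes were (18.4% higher and 20.1% lower).

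SOCS3 measured 8.98 and 9.67 CPM after DMSO and 10.5 and 9.74 after BRM014 at 1 h, a difference of 0.11 ± 0.13 that was not called. At 6 h it measured 10.997 and 10.1 after DMSO and 4.14 and 4.01 after BRM014, a fall by 1.39 ± 0.15 (edgeR adjusted p = 7.92e-09), or to 0.382 of the DMSO level. STAT2 measured 188 and 197 after DMSO and 109 and 104 after BRM014 at 6 h and fell by 0.88 ± 0.13 (edgeR adjusted p = 9.43e-05). No BRM014 library reached the lowest DMSO library for either gene. JAK1 measured 166 and 176 CPM after BRM014, a fall by 0.30 ± 0.058 from 201 and 213 after DMSO, and the receptor chains fell by 0.31 ± 0.057 for IFNGR1 (121 and 119 CPM) and 0.26 ± 0.064 for IFNGR2 (63.7 and 61.0 CPM). Without DMSO vehicle replicate 1, IFNGR2 was at -0.17 and not called (edgeR adjusted p = 0.0708).

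The kinase JAK2 (0.018 ± 0.078) and STAT3 (-0.056 ± 0.054) were not called, with 95% intervals of -0.14 to 0.18 and -0.17 to 0.053. SOCS1 measured 17.7 and 16.3 CPM after DMSO and 25.2 and 23.1 after BRM014 at 1 h, with every BRM014 library higher. Its differences of 0.50 ± 0.16 at 1 h and 0.32 ± 0.15 at 6 h were not called (edgeR adjusted p = 0.162 and 0.110), and DESeq2 called the 1 h value (adjusted p = 0.0190). IFNGR1 measured 160.4 and 148 CPM after DMSO and 128 and 139 after BRM014 at 1 h. Its call there, -0.21 ± 0.056 (edgeR adjusted p = 0.0475), was lost by DESeq2 (0.0591), with no filter (0.0525) and with only these groups in the fit (0.105). It was also lost without DMSO replicate 1 (edgeR adjusted p = 0.629), DMSO replicate 2 (0.0580) or BRM014 replicate 1 (0.479).

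Other pathway genes also changed at 6 h of BRM014, where 18.4% of all genes were higher and 20.1% lower. Of 13 other receptor chains 9 fell and 0 rose, led by IL10RA (-1.35 ± 0.088) and IL2RB (-0.94 ± 0.054), and of 6 other kinases and STATs 4 fell, JAK3 by 1.43 ± 0.090, STAT5A by 0.80 ± 0.070 and STAT6 by 0.77 ± 0.067. The other negative regulators were mixed, with 8 higher and 3 lower of 16. PTPN6, a phosphatase of immune receptors, fell by 1.98 ± 0.062, whereas PIAS3, an inhibitor of STAT3, and SOCS5 rose by 1.12 ± 0.083 and 0.82 ± 0.10. The medians were -0.36 for the receptor chains, -0.45 for the kinases and STATs and 0.15 for the regulators, beside 0.0064 over all tested genes and -0.28 for the 8.

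**Figure D4:**
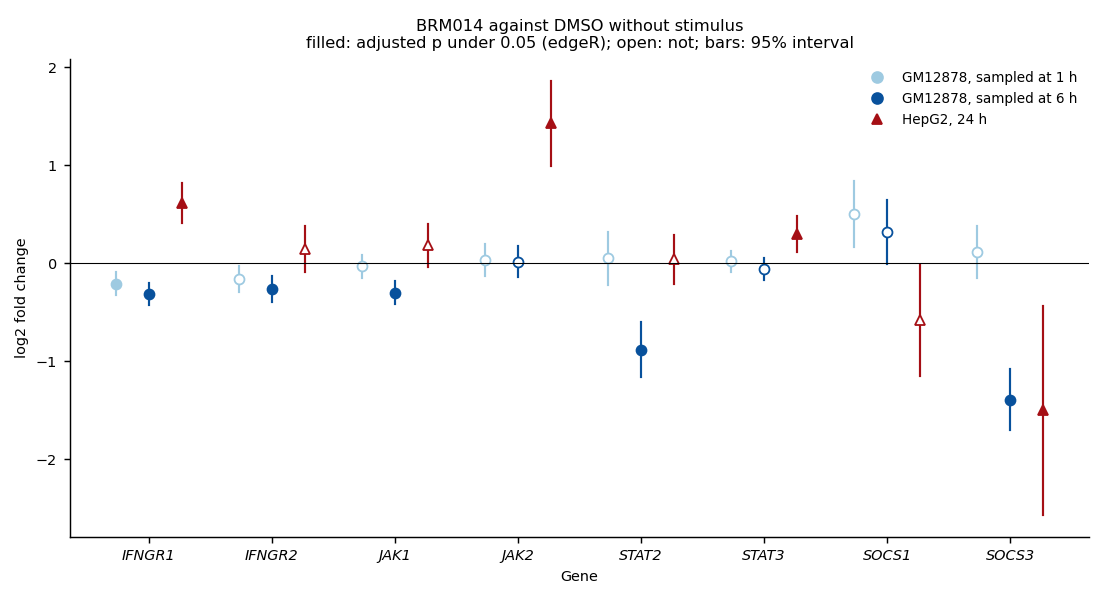
Log2 fold change of BRM014 against DMSO without stimulus for the 8 genes in GM12878 sampled at 1 h and 6 h and in HepG2 at 24 h, with 95% intervals; filled symbols have an edgeR adjusted p under 0.05. SOCS3 is below 0 in GM12878 at 6 h (-1.39) and in HepG2 (-1.50), while JAK2 is near 0 in GM12878 (0.018) and above it in HepG2 (1.43).

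The pretreatment experiment also asked whether BRM014 alters the response to IFNg. SOCS1 and SOCS3 rose with IFNg in the BRM014 arm as well, with a smaller response than after DMSO for both at 1 h and for SOCS1 at 6 h, whereas the responses of STAT2, STAT3 and IFNGR1 were not shown to differ between the arms. In the BRM014 arm IFNg called 2 of 8 genes at 1 h, both higher, where 0.105% of genes were called (0.105% higher), and 6 at 6 h, 5 higher and 1 lower, where 1.77% were (1.5% and 0.27%). The difference of the responses, BRM014 arm minus DMSO arm, was tested as an interaction. At 1 h it was called for 2 of 8 genes, where 0.0659% of all genes were (10 of 15183, 0.0659% lower), and at 6 h for 1 of 8, where 0.198% were (0.151% lower).

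At 1 h after BRM014, SOCS3 measured 10.5 and 9.74 CPM with vehicle and 30.1 and 29.2 with IFNg. The vehicle values were slightly above the 8.98 and 9.67 of the DMSO arm, and the IFNg values were below the 76.5 and 77.9 seen there. SOCS3 rose by 1.55 ± 0.11 in the BRM014 arm against 3.05 ± 0.11 in the DMSO arm, an interaction of -1.50 ± 0.16 (edgeR adjusted p = 3.79e-06). SOCS1 measured 25.2 and 23.1 with vehicle and 68.9 and 55.5 with IFNg after BRM014. It rose by 1.36 ± 0.14 against 2.51 ± 0.14, an interaction of -1.16 ± 0.20 (edgeR adjusted p = 0.0394). Its vehicle libraries were higher after BRM014 than the 17.7 and 16.3 CPM after DMSO, and its IFNg libraries were lower than the 106 and 87.3 CPM after DMSO.

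The SOCS3 call at 1 h held under each of the 13 alternatives run for it. The SOCS1 call was lost with only these groups in the fit (edgeR adjusted p = 0.172), without either vehicle replicate of the DMSO arm (0.171 and 0.319) or of the BRM014 arm (0.427 and 0.135), and without IFNg replicate 1 of the DMSO arm (0.0762) or 2 of the BRM014 arm (0.0663). Among the 10 genes with a called interaction at 1 h were 3 SOCS family genes, SOCS1, SOCS3 and CISH. CISH was the 1 called of the 16 other negative regulators. The 15 not called include the family members SOCS2, SOCS4, SOCS5, SOCS6 and SOCS7. No alternatives were run for CISH. CISH had risen by 2.11 ± 0.20 after DMSO and was at 0.66 ± 0.22 after BRM014 (interaction -1.45 ± 0.30, edgeR adjusted p = 0.0479), with 3.22 and 3.85 CPM with vehicle and 6.15 and 5.13 with IFNg. Of the 10 IFNg targets, 4 were called at 1 h after DMSO (median 0.79) and 3 after BRM014 (median 0.061), where 0.514% and 0.105% of all genes were. IRF1 rose by 3.33 ± 0.19 after DMSO and 3.46 ± 0.19 after BRM014, ICAM1 by 1.00 ± 0.078 and 1.00 ± 0.080, and TAP1 by 0.47 ± 0.061 and 0.31 ± 0.062. The IRF1 vehicle libraries after BRM014 differed from each other, at 68.9 and 37.9 CPM, beside 67.2 and 67.0 after DMSO. With IFNg, IRF1 measured 582 and 594 CPM after BRM014, below the 684 and 668 after DMSO. GBP5, called at 1.54 ± 0.28 after DMSO, was at 0.048 ± 0.36 after BRM014. None of the 10 interactions was called by edgeR, with 1 at an unadjusted p under 0.05 (GBP5, -1.49 ± 0.46), and their median was -0.14.

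At 6 h SOCS1 measured 26.8 and 22.2 CPM with vehicle and 40.2 and 47.8 with IFNg after BRM014. It rose by 0.85 ± 0.14 against 1.88 ± 0.14, an interaction of -1.03 ± 0.20 (edgeR adjusted p = 0.0467). Leaving out vehicle replicate 1 or 2 of the DMSO arm (edgeR adjusted p = 0.0746 and 0.257), IFNg replicate 1 of that arm (0.106), or vehicle or IFNg replicate 1 of the BRM014 arm (0.298 and 0.161) ended this call. SOCS3 measured 4.14 and 4.01 with vehicle and 8.15 and 8.67 with IFNg, a rise of 1.05 ± 0.16. Even with IFNg, SOCS3 was thus below the 10.997 and 10.1 CPM of vehicle libraries of the DMSO arm, and its interaction of -0.60 ± 0.20 was not called (edgeR adjusted p = 0.288).

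The STAT genes rose after BRM014 as well. STAT2 measured 109 and 104 CPM with vehicle and 289 and 255 with IFNg at 6 h, a rise of 1.36 ± 0.13 from a lower start, and its interaction was 0.34 ± 0.18 (edgeR adjusted p = 0.681). STAT3 measured 287 and 299.8 with vehicle and 454 and 481 with IFNg, a rise of 0.68 ± 0.053 against 0.71 ± 0.053, with an interaction of -0.035 ± 0.075 and a 95% interval of -0.19 to 0.12. JAK2, at 47.5 and 49.1 CPM with vehicle and 62.8 and 61.8 with IFNg, rose by 0.37 ± 0.077 against 0.72 ± 0.076, and its interaction of -0.35 ± 0.11 was not called (edgeR adjusted p = 0.264). The JAK2 rise after BRM014 was not called without replicate 1 of vehicle (edgeR adjusted p = 0.0876) or of IFNg (0.0596).

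Of the receptor chains, IFNGR1 measured 90.2 and 97.8 CPM with IFNg after BRM014 and fell by 0.35 ± 0.059 from 121 and 119, beside a fall of 0.27 ± 0.057 in the DMSO arm. IFNGR2 was at -0.16 ± 0.067 (edgeR adjusted p = 0.372) and JAK1 at -0.047 ± 0.058, neither called. The interactions at 6 h were -0.072 ± 0.082, -0.17 ± 0.092 and 0.18 ± 0.082 for IFNGR1, IFNGR2 and JAK1, and none was called.

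**Figure D5:**
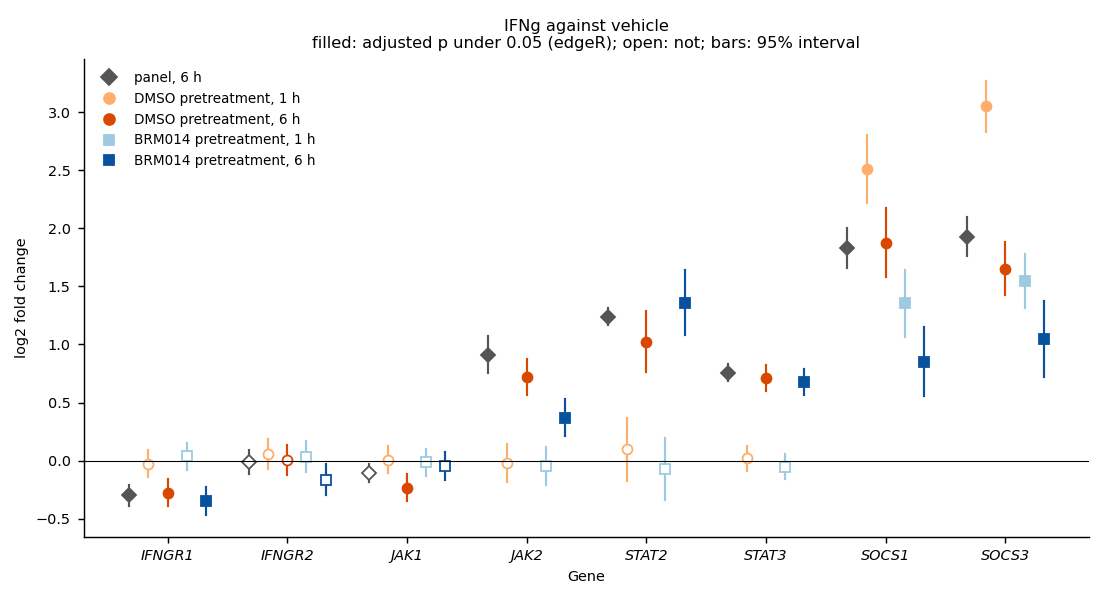
Log2 fold change of IFNg against vehicle for the 8 genes in the panel and in the DMSO and BRM014 arms at 1 h and 6 h, with 95% intervals; filled symbols have an edgeR adjusted p under 0.05. SOCS1 and SOCS3 are lower in blue (BRM014) than in orange (DMSO) at 1 h (1.36 against 2.51, and 1.55 against 3.05), while STAT3 stands at 0.68 and 0.71 at 6 h.

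The same question was put for Dex. After BRM014, Dex called 1 of 8 genes at 1 h, SOCS1, where 0.277% of genes were called (0.178% higher), and at 6 h 3 genes, IFNGR2 and SOCS1 higher and IFNGR1 lower, where 7.77% were (3.67% and 4.1%). SOCS1 measured 42.3 and 37.0 CPM with Dex at 1 h after BRM014 and 37.9 and 45.2 at 6 h, above the vehicle libraries of its arm and below every Dex library of the DMSO arm at the same time. It rose by 0.71 ± 0.14 at 1 h (edgeR adjusted p = 0.0465) and 0.78 ± 0.14 at 6 h (0.00122). Without any 1 of the 4 libraries compared the 1 h call was lost: vehicle replicate 1 (edgeR adjusted p = 0.274) or 2 (0.392), Dex replicate 1 (0.677) or 2 (0.106). Its interactions with BRM014 were -0.70 ± 0.21 at 1 h and -0.69 ± 0.20 at 6 h, not called by edgeR (adjusted p = 0.963 and 0.0907), while DESeq2 called the 6 h value (adjusted p = 0.00846).

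IFNGR1 fell and IFNGR2 rose with Dex at 6 h after BRM014 as well. The 6 B cell markers summed to between 961 and 973 CPM with Dex and between 1130.2 and 1139.7 with vehicle in these libraries, and their part in the result was not tested. IFNGR1 measured 74.0 and 71.5 CPM with Dex at 6 h, the lowest values of the 39 GM12878 libraries, and fell by 0.71 ± 0.059. IFNGR2 measured 83.9 and 87.6 and rose by 0.47 ± 0.064. Their interactions of -0.23 ± 0.083 and -0.038 ± 0.089 were not called (edgeR adjusted p = 0.161 and 0.933). SOCS3 measured 2.89 and 2.63 CPM with Dex at 6 h after BRM014, below 4.14 and 4.01 with vehicle, where the DMSO arm had higher values with Dex than with vehicle. Within each arm its change was not called (-0.55 ± 0.19 after BRM014, edgeR adjusted p = 0.0862), but the difference between the arms was, at -0.89 ± 0.23 (edgeR adjusted p = 0.0264).

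SOCS3 was the 1 gene of 8 with a called Dex interaction at 6 h, where 2.76% of genes were called (1.72% lower). The call was lost without DMSO arm vehicle replicate 2 (edgeR adjusted p = 0.0930), DMSO arm Dex replicate 1 (0.0626) or 2 (0.0603), BRM014 arm vehicle replicate 1 (0.116) or 2 (0.0834), and BRM014 arm Dex replicate 1 (0.0651) or 2 (0.161). At 1 h edgeR called 0 of 8 Dex interactions, with 2 at an unadjusted p under 0.05 (JAK2 at -0.24 ± 0.11 and SOCS1), where 0.119% of genes were called, and DESeq2 also called 0. The JAK1 response to Dex at 6 h after BRM014, 0.18 ± 0.058, was not called (edgeR adjusted p = 0.0520), with 196 and 188 CPM against 166 and 176. CISH again had a called interaction at 6 h, -1.24 ± 0.32, with 8.20 and 8.32 CPM with Dex after DMSO and 3.37 and 2.58 after BRM014.

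None of the 8 genes was called for TNF, LPS or IL2 at 6 h. EdgeR called 0 of 8 for TNF, with 0 at an unadjusted p under 0.05, where 0.019% of genes were called. It called 0 for LPS, with 2 at an unadjusted p under 0.05 (STAT2 at 0.14 ± 0.040 and SOCS1 at 0.20 ± 0.095), where 0% were called. For IL2 it called 0, with 4 at an unadjusted p under 0.05 (SOCS3, SOCS1, STAT2 and STAT3, all higher), where 0.203% were called (0.197% higher and 0.00634% lower), and DESeq2 also called 0 for all 3 stimuli. The largest IL2 difference was that of SOCS3, at 14.4 and 14.6 CPM, above all 4 control libraries (11.3 and 11.4 with DMSO and 11.98 and 9.89 with PBS). Its difference of 0.39 ± 0.095 (edgeR adjusted p = 0.0849) became a call without PBS replicate 1 (adjusted p = 0.0192) or with no filter (0.0484). IL2 raised CISH (1.31 ± 0.12), from 4.69 and 4.39 CPM with DMSO and 4.06 and 4.21 with PBS to 10.5 and 10.99. It also raised STAT5A (0.21 ± 0.037), and both genes belong to IL2's own signalling route.

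Dox had a single library, so its values are a description with no test. IFNGR1 at 120.6 CPM, SOCS1 at 16.2 and SOCS3 at 7.75 were below all 4 control libraries, with log2 ratios of CPM plus 1 to the control mean of -0.31, -0.26 and -0.47. STAT2 at 279 and STAT3 at 330.2 CPM were above all 4, at 0.14 and 0.18. IFNGR2, JAK1 and JAK2 lay within the controls' range.

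HepG2 carried the same pathway genes at other levels. In its DMSO libraries JAK2 was at 1.70 ± 0.0283 TPM and SOCS3 at 0.960 ± 0.240 (mean ± SD, n = 2), against 10.2 ± 0.672 and 5.38 ± 0.0495 in panel DMSO of GM12878. IFNGR1 was the highest of the 8 in HepG2 at 62.8 ± 4.35 TPM, followed by IFNGR2 at 51.5 ± 0.601 and STAT3 at 49.2 ± 3.22, which overlapped, and STAT2 stood at 25.1 ± 3.63. Line, time and experiment cannot be told apart in this comparison.

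BRM014 for 24 h in HepG2 was followed by higher IFNGR1, JAK2 and STAT3 and lower SOCS3, 4 of 8 genes called where 42.1% of 13349 genes were (19.3% higher and 22.8% lower). The count is near that share, so it does not set the 8 genes apart from the rest. The 6 hepatocyte markers summed to between 34802 and 38728 CPM with DMSO and between 15607 and 18273 with BRM014, and their part in the result was not tested. JAK2 measured 6.68 and 5.90 CPM with DMSO and 18.5 and 11.9 with BRM014, a rise of 1.43 ± 0.21 (edgeR adjusted p = 2.92e-05), or 2.69-fold. IFNGR1 measured 90.2 and 98.5 with DMSO and 152 and 122 with BRM014 and rose by 0.62 ± 0.097 (edgeR adjusted p = 6.97e-05). Both BRM014 libraries were above both DMSO libraries for each of these genes. STAT3 measured 163 and 173 with DMSO and 207 and 185 with BRM014, a rise of 0.30 ± 0.087 (edgeR adjusted p = 0.0108).

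SOCS3 measured 1.62 and 2.24 CPM with DMSO and 0.695 and 0.582 with BRM014, from 15 and 35 counts and from 14 and 2. It fell, with a log2 fold change of -1.50 ± 0.50 (edgeR adjusted p = 0.0241), and DESeq2 did not call it (adjusted p = 0.218). The SOCS3 call was lost without DMSO replicate 1 (edgeR adjusted p = 0.0612), DMSO replicate 2 (0.281) or BRM014 replicate 1 (0.265), and that of STAT3 without DMSO replicate 1 (0.0784) or BRM014 replicate 1 (0.0790), while the JAK2 and IFNGR1 calls held each time. Without the shallow BRM014 replicate 2 the count of called genes was 4 again. IFNGR2 (0.14 ± 0.11), JAK1 (0.18 ± 0.11), STAT2 (0.042 ± 0.12) and SOCS1 (-0.58 ± 0.27) were not called. The difference between the lines in the BRM014 response was not tested, and the times differ.

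Genes with a similar pattern were sought over the 12 group means of the pretreatment experiment, by Pearson's r of log2 CPM among 10411 genes with at least 5 CPM on average. These values describe group means that share libraries and depth. JAK2 and STAT3 were each other's nearest gene (r = 0.96), and IL15RA, a receptor chain for IL15, was among the nearest 3 of both (r = 0.94 to each). STAT2 ran with NLRC5, an activator of MHC class I genes (r = 0.99), EPSTI1 (0.99) and HLA-E (0.99). SOCS3 was nearest to the adhesion gene ICAM1 (r = 0.96), then VCPIP1 (0.92). SOCS1 had no close neighbour, with DNAJC15 at 0.83, CISH at 0.77 and FAM83H at 0.77. IFNGR1 was nearest to the B cell transcription factor SPIB (r = 0.98), IFNGR2 to SNX8 (0.97) and JAK1 to AIG1 (0.97).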

How the data were processed

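Polyadenylated RNA of 43 GM12878 and HepG2 libraries was sequenced. The reads were aligned with STAR and quantified with RSEM on hg38, per the submitters' processing notes, and versions, strand use and the annotation release are not given in the sources used here. Each deposited file holds RSEM's expected count per gene, not scaled for depth, and the deposited TPM, scaled by the authors for transcript length and depth. Symbols were matched by Ensembl identifier to GENCODE 44, which named 58207 of 58780 genes.

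Expected counts were rounded and tested with edgeR 4.0.16 in R 4.3.3 (TMM, filterByExpr, robust quasi-likelihood, Benjamini-Hochberg threshold 0.05). The panel (15 libraries), the pretreatment experiment (24) and HepG2 (4) were fitted separately over 15775, 15183 and 13349 genes, with all 8 genes passing the filter in each fit and 7, 12 and 2 residual degrees of freedom. The control of a panel stimulus was DMSO and PBS averaged, since no label ties a vehicle to a stimulus. Levels are CPM with TMM over all 43 libraries. Among the 8 genes, counting error is largest for SOCS3 in HepG2, with 2 to 35 counts. The procedure was tested on simulated data with known changes.

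The alternatives were DESeq2 1.42.0, its size factors in edgeR, DMSO or PBS alone as control, a fit of the compared groups only, a block for the replicate number, no filter, and each library left out. The 8 genes were named in every comparison, up to 4 called genes per pathway list by smallest adjusted p, and the 3 most alike genes per member by Pearson's r. Genes, lists and tests were chosen with earlier results of these data known. The promoters of the 8 genes were read from hg38 at the MANE Select starts of GENCODE 44. Some items are not reported here.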

Additional observations from a re-analysis of the deposited data

Results flagged for a closer look

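For 4 responses of the inhibitor genes a test of the difference between the BRM014 and DMSO arms was called. The IFNg response at 1 h was lower after BRM014 for SOCS3 (-1.50 on the log2 scale) and for SOCS1 (-1.16), as was that of SOCS1 at 6 h (-1.03). The Dex response of SOCS3 at 6 h was lower after BRM014 by the same kind of test (-0.89), although neither arm's own change was called. Of these, the SOCS3 difference at 1 h held without each of the 8 libraries in turn, and the other 3 did not.

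The IFNg response differed between 6 h and 1 h in the DMSO arm for 4 genes, with JAK2 (0.74), STAT3 (0.69) and STAT2 (0.93) higher at 6 h and SOCS3 lower (-1.40). The Dex response differed between these times for the receptor chains, lower at 6 h for IFNGR1 (-0.41) and higher for IFNGR2 (0.48).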

How the results depend on the processing

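Across 1993 values of the 8 genes under the alternatives, 0 that were called in either setting changed direction (some near 0 and not called did), 1904 kept their side of the threshold, 57 lost the call and 32 gained one, and the cause was not tested. The count of called genes became 1 (0 as reported) for IL2 with no filter, 3 (5) for panel Dex with DMSO alone as control, and 2 (1) for Dex at 1 h after BRM014 with no filter. For the difference between arms it became 1 (2) for IFNg at 1 h with only the compared groups, and 1 (0) for Dex at 1 h with no filter or only the compared groups. It became 2 (1) for Dex at 6 h with no filter, with DESeq2 or with only the compared groups. The IFNGR2 level in HepG2 DMSO was 56.1 CPM with TMM within that experiment, against 57.7 over all libraries.

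Leaving out each library in turn gave ranges of 0 to 1 called genes for IL2, 6 to 7 for panel IFNg, 3 to 5 for panel Dex, 6 to 7 and 5 to 6 for IFNg at 6 h after DMSO and BRM014, 3 to 4 for Dex at 6 h after DMSO, 0 for Dex at 1 h after BRM014, 0 to 1 and 4 to 5 for BRM014 at 1 h and 6 h, 1 to 2 and 0 to 2 for the arm difference of IFNg at 1 h and 6 h, 0 to 1 for that of Dex at 6 h, 3 to 5 and 2 to 3 for the time difference of IFNg and Dex, and 2 to 4 for HepG2. Where that left a group with 1 library, it was assumed to vary like the other groups.

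Same-numbered replicates did not deviate together (correlations from -0.0686 to 0.0831 in GM12878 and -0.0944 in HepG2, from 1 pair of groups). No effect shared by replicate number was thus seen, but this cannot tell whether same-numbered libraries came from the same culture, which no label states. With the replicate block, HepG2 had 2 called genes (STAT3 at edgeR adjusted p = 0.0657 and SOCS3 at 0.0857 not called), panel Dex had 6 with STAT2 added (0.0403), and Dex at 6 h after BRM014 had 4 with JAK1 added (0.0403). The other 20 counts were the same with the block. In HepG2, SOCS3 rests on 2 to 35 counts per library, and a left-out library leaves 1 residual degree of freedom.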

Other observations

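Ligand genes of JAK-STAT receptors, except EBI3, were at most 18.7 CPM in GM12878. Of 13 ligand genes, 7 were tested in GM12878. EBI3, a subunit of IL27 and IL35, stood apart at 147 to 265.5 CPM over the 39 GM12878 libraries, with IL15 next at 8.18 to 18.7. IL10 lay between 0.388 and 3.21 CPM and IL6 between 0.116 and 1.56, while IL21 was at 0 in all 39 libraries and IL2 in 38. After BRM014 for 6 h without stimulus 3 of the 7 tested ligand genes fell, where 20.1% of all genes did, with log2 fold changes of -2.28 ± 0.41 for IL10, -1.95 ± 0.57 for LIF and -1.64 ± 0.56 for IL6 (edgeR adjusted p = 3.55e-05, 0.00712 and 0.0194). LIF, a cytokine of the IL6 family, rose by 0.94 ± 0.26 with panel IFNg (edgeR adjusted p = 0.0140). In the DMSO arm it was not called with IFNg at 6 h, at 0.15 ± 0.46 (edgeR adjusted p = 0.931), with 0.626 and 1.41 CPM against 0.851 and 1.01. In HepG2 it rose by 1.81 ± 0.20 with BRM014 (edgeR adjusted p = 1.80e-06), where its level over the 4 libraries ran from 4.81 to 18.9 CPM.

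In HepG2 other receptor chains also changed with BRM014, with 4 higher and 1 lower of 8 tested, where 19.3% of all genes were higher and 22.8% lower. IL4R, which binds IL4, rose by 1.46 ± 0.10 and IL27RA by 1.19 ± 0.16, while IL6R, the ligand-binding chain for IL6, fell by 1.06 ± 0.12. Of the 15 other negative regulators tested there 6 rose and 2 fell, against 42.1% of all genes called in either direction. These included PIAS3, up by 1.22 ± 0.13 and PTPN2, a phosphatase of JAK kinases, up by 0.56 ± 0.11.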
